A study of Chlamydomonas reinhardtii with 4 samples.

Results

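The regions described here carried an H3K27ac peak in exactly 3 of 4 ChIP-seq libraries of the unicellular green alga Chlamydomonas reinhardtii, so that 1 library stood out by having no called peak. Overlapping peaks of the 4 lists (1 bp or more) were merged into 15521 regions, and 325 of these (2.09%) met that rule. The libraries were a DNMT1 knockout (dnmt1) of strain CC-5155, mating type plus (mt+), a DNMT1 knockout of strain CC-5325, mating type minus (mt−), and wild type (WT) of each strain, all in the vegetative stage. Each of these 4 groups had 1 library, so mating type changed together with strain. No difference between groups could be tested, and every value below describes these libraries. How the knockouts were made and from how many clones was not given in the sources used here.

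H3K27ac is the acetylated form of a lysine in the tail of histone H3. It is placed by histone acetyltransferases, removed by deacetylases, and found in many eukaryotes at active promoters and enhancers. DNMT1 belongs to the cytosine DNA methyltransferases, and in animals it copies CpG methylation onto newly made DNA. DNA methylation and histone acetylation often mark different stretches of a genome, and a peak list records the acetylated stretches as places where the ChIP signal passed a statistical threshold over its control.

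Members were chosen by the presence or absence of a called peak in each list, that is by the authors' q-value threshold, so the size of each group is set by the lists and is given as a description. The deposited lists held 14986 peaks for dnmt1 mt+, 15323 for dnmt1 mt−, 14990 for WT mt+ and 15065 for WT mt−. The lists give no read counts, so the depth behind each peak is unknown. A missing peak means that nothing passed the authors' threshold there, not that acetylation was absent.

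The dnmt1 mt+ library was the one most often missing. It alone lacked a peak at 162 regions (1.04% of all regions), which was 49.8% of the members. The dnmt1 mt− library alone lacked a peak at 30 regions (0.193%). WT mt+ alone lacked 59 regions (0.38%) and WT mt− alone lacked 74 (0.477%). Over the regions that the other 3 libraries all held, these were 1.12% for dnmt1 mt+ (exact 95% Clopper-Pearson interval 0.951 to 1.30), 0.208% for dnmt1 mt− (0.141 to 0.297), 0.409% for WT mt+ (0.312 to 0.527) and 0.513% for WT mt− (0.403 to 0.643). The intervals cover counting error only and treat regions as independent. Genotype did not order the groups in the lists as deposited: within the mt+ strain the knockout lacked more regions than WT, and within the mt− strain it lacked fewer. The dnmt1 mt+ list was also the shortest and the dnmt1 mt− list the longest. With every list cut to the shortest length the counts were 115 for dnmt1 mt+, 98 for dnmt1 mt−, 34 for WT mt+ and 70 for WT mt−, so both dnmt1 counts were then above both WT counts and the order within the mt− strain was reversed.

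Being the only library without a peak was one of several ways to lack one. The dnmt1 mt+ library lacked a peak at 740 regions in all, and 21.9% of these were held by the other 3 libraries. That share was 8.36% of 359 regions for dnmt1 mt−, 8.71% of 677 for WT mt+ and 12.2% of 606 for WT mt−.

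Most members were weak in all the libraries that held them. Strength is given on 2 scales, both from the authors' values: the fold enrichment, a ratio over the control at the peak's summit, and the percentile of the peak's −log10 q-value within its own list, where 50 is the middle of the list. For regions missing from dnmt1 mt+, dnmt1 mt− had a median fold enrichment of 2.21, WT mt+ of 2.19 and WT mt− of 2.16. The corresponding median percentiles were 3.83, 3.12 and 3.62, and none of the 162 regions passed the middle of any list. Regions in all 4 lists had median fold enrichments of 5.54 in dnmt1 mt+, 5.97 in dnmt1 mt−, against 5.74 in WT mt+ and 5.49 in WT mt−.

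The other groups were alike in the middle and longer in the upper tail. Regions missing from dnmt1 mt− had median fold enrichments of 2.24 in dnmt1 mt+, against 2.38 in WT mt+ and 2.42 in WT mt−. For regions missing from WT mt+ the medians were 2.05 in dnmt1 mt+, 2.13 in dnmt1 mt− and 2.10 in WT mt−, the lowest of any group. For regions missing from WT mt− they were 2.34 in dnmt1 mt+, 2.43 in dnmt1 mt− and 2.35 in WT mt+, and the upper quartiles reached 3.31, 3.35 and 2.80. Regions missing from WT mt− thus held the largest share of stronger peaks, as the median of the percentiles over the holding libraries was under 10 in 70.3% of them. That share was 93.8% for dnmt1 mt+, 76.7% for dnmt1 mt− and 89.8% for WT mt+, and 6.65% for regions in all 4 lists.

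**Figure D1:**
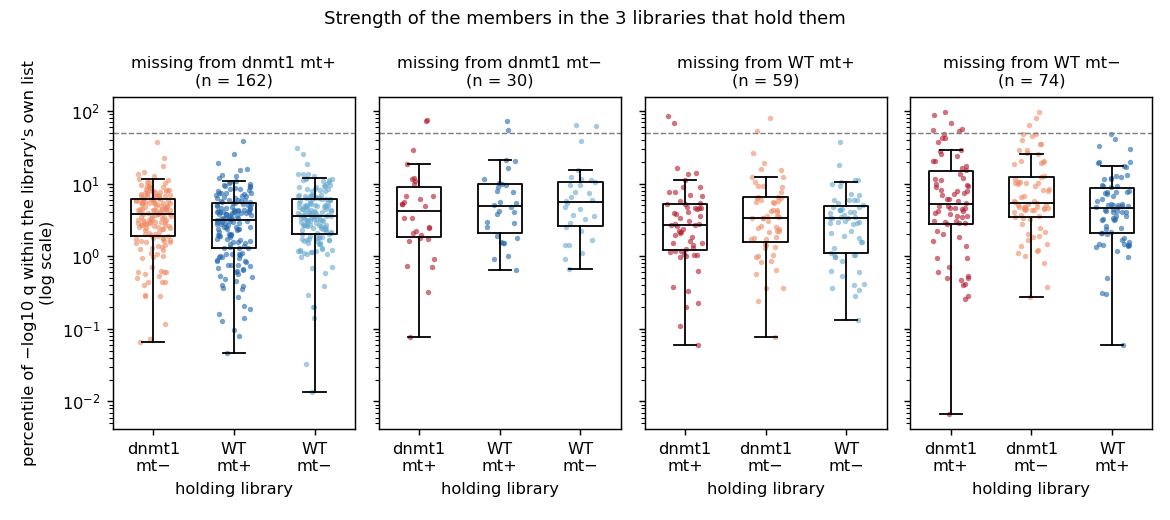
Percentile of −log10 q within each holding library's own list (log scale) for the 4 groups of members, 1 point per region, with boxes for the median and quartiles, whiskers for values within 1.5 interquartile ranges, and a dashed line at the middle of a list. Most points lie under 10 in every panel, and the group missing from dnmt1 mt+ has no point above the dashed line.

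The share of regions missing from 1 library was steeply graded by strength. Among regions held by 3 or 4 lists, 82 of the 117 with a median percentile under 2 were members (70.1%). The share was 29.9% of 442 regions between 2 and 5, 9.76% of 676 between 5 and 10, and 1.75% of 1482 between 10 and 20. Above 50 it was 7 of 7601 regions (0.0921%). The rule itself depends on the threshold, so this grading is a description. The dnmt1 mt+ library was the most frequently missing one in each of the 3 lowest bands, at 37.6%, 15.6% and 5.77% of their regions. In the band from 20 to 50 it was missing at 2 regions, dnmt1 mt− at 1, WT mt+ at 0 and WT mt− at 9.

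**Figure D2:**
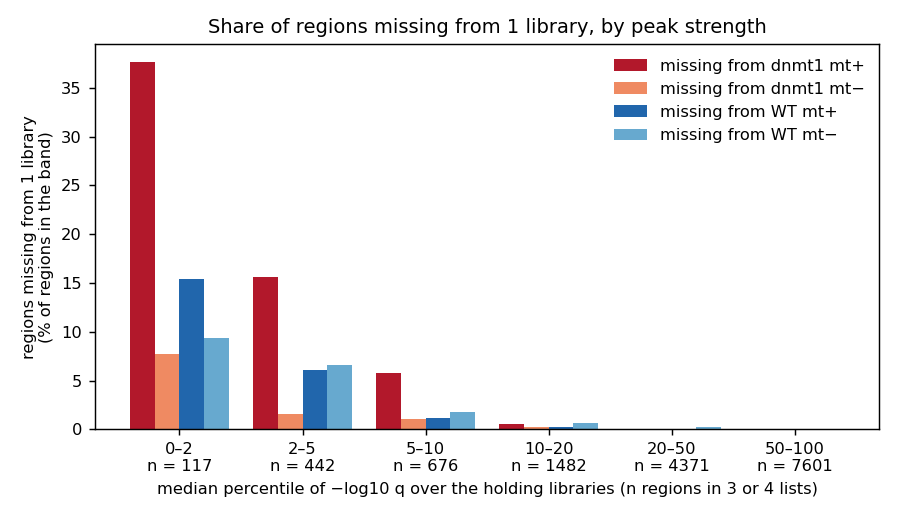
Percentage of regions missing from 1 library, by the band of median percentile of −log10 q over the holding libraries, with 1 bar for each missing library and the number of regions per band under the axis. The bars fall from 37.6% for dnmt1 mt+ in the weakest band to under 1% in every group above the 10th percentile.

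The cases nearest to the edge of the rule are given here for members and for regions in all 4 lists. The member with the weakest holding peak, at chromosome 2, 8168424 to 8168739, had a −log10 q of 2.17 in its weakest library. The weakest peak by which a region counted as held by all 4 lists, at chromosome 5, 1895113 to 1895725, had 2.18. The lowest −log10 q of a list ran from 2.01 in dnmt1 mt− to 2.17 in dnmt1 mt+. The closeness of these values thus follows from the threshold and does not compare members with other regions. By position, the closest case was at chromosome 10, 2870276 to 2870762, where the nearest dnmt1 mt− peak began 131 bp away. The smallest overlap that joined a library to a region of all 4 lists was 164 bp, at chromosome 13, 2067285 to 2067818.

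Members were narrow. The merged width had a median of 408 bp for regions missing from dnmt1 mt+, 375 bp for dnmt1 mt−, 428 bp for WT mt+ and 422.5 bp for WT mt−, against 900 bp for regions in all 4 lists. In all, 290 of the 325 members (89.2%) were narrower than the lower quartile of the regions in all 4 lists, 708 bp. In regions of all 4 lists width follows strength, so weak regions are the fairer comparison: with a median percentile under 10, the 280 members had a median width of 408.5 bp and the 955 regions in all 4 lists 516 bp. These weak sets still differed in strength, with a middle value of 3.21 for the median percentile in members and 6.13 in regions of all 4 lists. In narrower bands the median widths were 430.5 bp in members and 485 bp in regions of all 4 lists under the 2nd percentile, 408.5 and 487.5 bp between 2 and 5, and 387.5 and 538 bp between 5 and 10, so the gap was smallest in the weakest band. A region merged from 3 peaks is also a little narrower by construction than one merged from 4, but the peaks themselves were shorter too. In these weak sets the median peak length in dnmt1 mt− was 329 bp in members and 454 bp in regions of all 4 lists, and in WT mt− it was 333 bp and 430 bp.

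The holding libraries placed the summit at nearly the same point. The range of the 3 summit positions had a median of 69.5 bp over the 280 weak members. In the 955 weak regions of all 4 lists, the same range over any 3 libraries had medians of 74 to 77 bp. Of all members, 5 had more than 1 peak in a library.

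**Figure D3:**
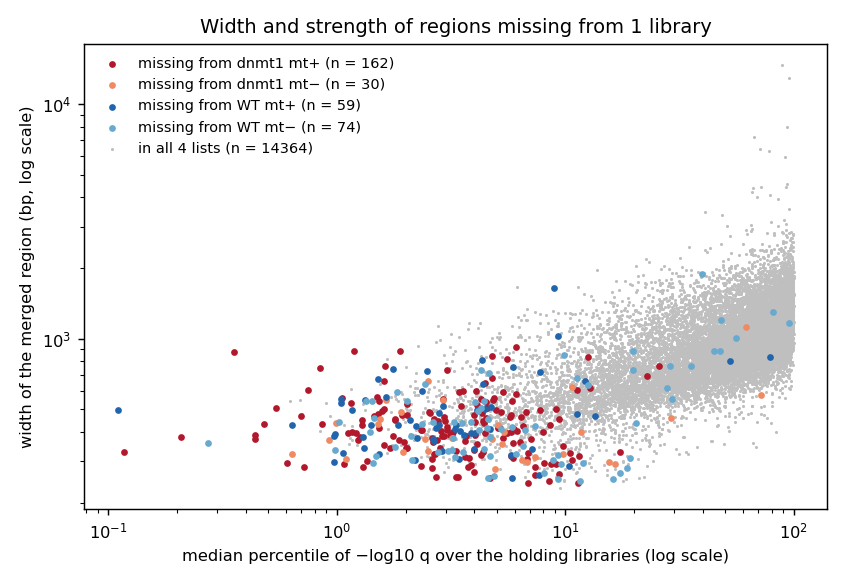
Width of the merged region (bp, log scale) against the median percentile of −log10 q over the holding libraries (log scale), 1 point per region, coloured by the missing library, with regions in all 4 lists in grey. Members crowd the lower left of the plot, with group medians from 375 to 428 bp, and 7 members lie above the 50th percentile among the grey points at the right, 2 of them missing from dnmt1 mt−, 2 from WT mt+ and 3 from WT mt−.

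A small number of members were strong, and most of these were missing from WT mt−. A median percentile of at least 20 was reached by 19 members: 2 missing from dnmt1 mt+ (1.23% of its 162), 3 missing from dnmt1 mt− (10.0% of 30), 2 missing from WT mt+ (3.39% of 59) and 12 missing from WT mt− (16.2% of 74). The split at 20 was chosen after the values were seen.

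Regions missing from dnmt1 mt+ had few strong cases. The first by the lowest of its 3 fold enrichments was at chromosome 6, 606476 to 607237, where dnmt1 mt− had 5.30, WT mt+ 3.77 and WT mt− 3.82. It lay next to a region held by both mt− libraries and by neither mt+ library, 834 bp away. At chromosome 3, 8689786 to 8690399, the fold enrichments were 3.44 in dnmt1 mt−, against 3.18 in WT mt+ and 3.31 in WT mt−. The 3 values were thus close to each other, while the nearest dnmt1 mt+ peak was 728 bp away. Chromosome 17 held the next pair, at 864128 to 864456 (3.93 in dnmt1 mt−, against 4.16 in WT mt+ and 3.16 in WT mt−), then 5330720 to 5331035 (3.58, 3.11 and 3.10 in the same libraries). At chromosome 15, 1083293 to 1083535, the peaks reached 3.30 in dnmt1 mt−, against 3.74 in WT mt+ and 3.10 in WT mt−. This 243 bp region stood alone, 24233 bp from its nearest neighbour in any list. The sixth, at chromosome 2, 3450969 to 3451295, had 3.19, 2.95 and 3.03 in these libraries. In these 6 regions the highest fold enrichment was 1.08 to 1.41 times the lowest. The 6 were picked by their lowest value, which favours regions with similar values. Other members of the group were less even. At chromosome 16, 2654017 to 2654707, WT mt− had 4.46 and WT mt+ had 2.31. This region was 1 of the 2 in the group with a median percentile of at least 20. At chromosome 3, 8883862 to 8884700, WT mt+ had 5.07 and dnmt1 mt− had 2.25. At chromosome 6, 6383635 to 6384112, WT mt+ had 4.69 and WT mt− had 1.76.

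At the other end, the weakest member missing from dnmt1 mt+ lay at chromosome 3, 5217371 to 5217801. It had a fold enrichment of 1.57 in dnmt1 mt−, against 1.51 in WT mt+ and 1.55 in WT mt−, all under the first percentile. The widest, at chromosome 9, 316447 to 317364, spanned 918 bp with 2.62, 2.34 and 2.36. It ranked between the 4.29th and 6.71th percentiles of the lists that held it.

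Regions missing from dnmt1 mt− were the fewest but included strong peaks, mainly on chromosome 17. The strongest, from 4536948 to 4537523, reached 7.31-fold enrichment in dnmt1 mt+, against 6.91 in WT mt+ and 6.74 in WT mt−, at the 74.3th, 72.0th and 64.6th percentiles. The nearest dnmt1 mt− peak was 5187 bp away. Farther along, at 5246074 to 5247196, the values were 7.03 in dnmt1 mt+, against 5.78 in WT mt+ and 5.93 in WT mt−. These 2 regions were the only members in which every holding library ranked above the middle of its list. A weaker neighbour of the first, at 4547426 to 4547885, had 3.91 in dnmt1 mt+, against 3.27 in WT mt+ and 4.54 in WT mt−. From 575672 to 575968 the fold enrichments were 3.01, 4.26 and 3.55 in the same libraries. In all, 6 of the 30 regions missing from dnmt1 mt− lay on chromosome 17. The remaining named regions of the group were at chromosome 3, 6721073 to 6721695 (3.02 in dnmt1 mt+, against 2.85 in WT mt+ and 2.98 in WT mt−), as well as chromosome 4, 2539238 to 2539551 (2.59, 2.78 and 2.70). The chromosome 4 region lay only 142 bp from a dnmt1 mt− peak.

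Of the 6 regions missing from WT mt+ that led by the lowest of their 3 fold enrichments, the remaining WT library had that lowest value in 4. At chromosome 9, 4253046 to 4253880, the fold enrichment was 6.77 in dnmt1 mt+ and 6.96 in dnmt1 mt−, against 2.46 in WT mt−. The percentiles were 85.6 and 78.9 in the dnmt1 lists and 7.02 in the WT mt− list. The regions on either side of it had peaks in the dnmt1 libraries of both strains and in no WT library, a pattern called gained below. The highest by its lowest value was at chromosome 6, 4414251 to 4415050, with 6.43 in dnmt1 mt+, 5.97 in dnmt1 mt− and 4.91 in WT mt−, and the next region along the chromosome, at 4423673 to 4424335, was missing from WT mt+ too (3.05, 3.09 and 2.92). The nearest WT mt+ peak was 6745 bp from the first and 16167 bp from the second. At chromosome 15, 2773640 to 2774108, the values were 2.89 in dnmt1 mt+, 3.37 in dnmt1 mt− and 2.26 in WT mt−. At chromosome 15, 4166043 to 4166382, they were 2.81, 2.33 and 2.52, and at chromosome 6, 2663675 to 2664429, they were 2.30, 2.57 and 2.43. The widest member of the group, 1642 bp at chromosome 15, 2329148 to 2330789, had 2.02 in dnmt1 mt+ and 3.44 in dnmt1 mt−, against 1.50 in WT mt−.

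The 12 regions missing from WT mt− with a median percentile of at least 20 were of 2 kinds. In the first, all 3 holding libraries were similar. At chromosome 6, 7704000 to 7704884, the fold enrichment was 5.47 in dnmt1 mt+, 5.98 in dnmt1 mt− and 5.45 in WT mt+. At chromosome 4, 1464526 to 1465412, it was 5.36 in dnmt1 mt+, 6.21 in dnmt1 mt− and 6.32 in WT mt+, and the nearest WT mt− peak was 10998 bp away. The regions at chromosome 7, 4863380 to 4863995 (4.27, 4.59 and 4.67 in these libraries), chromosome 6, 6835929 to 6836483 (4.05, 4.45 and 5.34) and chromosome 17, 2553642 to 2554077 (4.43, 4.18 and 3.82) were of this kind as well. In all 5 the adjacent regions on both sides had a peak in every list, as in 70.3% of all regions missing from WT mt−. This also held for the chromosome 6 region at 4538523 and the chromosome 8 region at 1244912, described below.

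In the second kind, both dnmt1 libraries were well above WT mt+. At chromosome 6, 4538523 to 4539688, dnmt1 mt+ had 7.96 and dnmt1 mt− had 7.70, against 2.25 in WT mt+, at the 97.4th and 95.5th percentiles of the dnmt1 lists and the 3.31th percentile of the WT mt+ list. At chromosome 16, 3514336 to 3515634, dnmt1 mt+ had 7.0 and dnmt1 mt− had 6.57, against 2.80 in WT mt+. The widest member of all, 1895 bp at chromosome 8, 2710682 to 2712576, had 5.07 in dnmt1 mt+ and 5.40 in dnmt1 mt−, against 2.47 in WT mt+. Both of its neighbours were gained regions, and the nearest WT mt− peak was 18255 bp away. At chromosome 8, 1244912 to 1245914, the values were 5.84 in dnmt1 mt+ and 6.46 in dnmt1 mt−, against 4.04 in WT mt+.

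Counted by a difference of at least 20 percentile points, 8 of the 133 members missing from a WT library had both dnmt1 percentiles above that of the WT library which held them. The opposite, both WT percentiles at least 20 points above the remaining dnmt1 library, was found in 0 of the 192 members missing from a dnmt1 library. Only a member with a median percentile of at least 20 can meet either rule, which leaves 14 members missing from a WT library and 5 missing from a dnmt1 library, so the 8 and the 0 rest on few regions. Of the 8, 7 lacked a peak in WT mt−. Among the 11953 regions of all 4 lists with a median percentile of at least 20, both dnmt1 percentiles lay 20 points above WT mt+ in 266 (2.23%) and 20 points above WT mt− in 267 (2.23%). In the opposite direction, both WT percentiles lay 20 points above dnmt1 mt+ in 208 (1.74%) and above dnmt1 mt− in 168 (1.41%). Percentiles from lists of different length rank a peak within its list and do not measure a change. This count was added after the values had been seen.

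**Figure D4:**
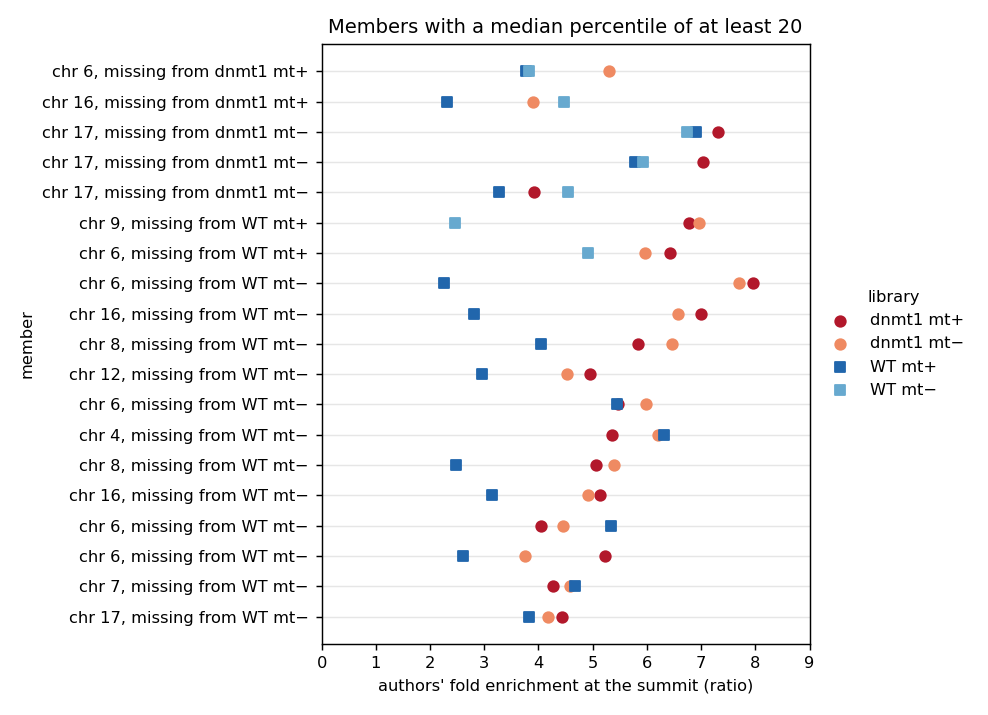
Authors' fold enrichment (ratio) of the 19 members with a median percentile of at least 20, 1 row per region named by its chromosome and its missing library, with circles for dnmt1 and squares for WT libraries. In some rows the 3 points lie together, while in several WT-missing rows both circles lie far to the right of the square, as on chromosome 9 (6.77 and 6.96 for dnmt1, 2.46 for WT mt−).

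Most of these 8 members lay near gained regions, as did a part of the regions in all 4 lists with the same grading. Of the 8, all but the chromosome 8 region at 1244912 had a gained region within 50 kb, the distances running from 1.087 kb at chromosome 9 to 31.0 kb at chromosome 6, 4519890 to 4520656. The gained region nearest to that last member was also the nearest to the member at chromosome 6, 4538523 to 4539688 (12.0 kb). These chromosome 6 members are thus not separate cases. Of the 67 regions of all 4 lists in which both dnmt1 percentiles were at least 20 points above both WT percentiles, 24 (35.8%) had a gained region within 50 kb, beside 4.04% of the 11953 regions of all 4 lists with a median percentile of at least 20. Over whole groups, 12 of 59 regions missing from WT mt+ (20.3%) and 10 of 74 missing from WT mt− (13.5%) had a gained region within 50 kb. For regions missing from dnmt1 mt+ this held for 6 of 162 (3.70%), and for dnmt1 mt− for 2 of 30 (6.67%). In regions of all 4 lists with a median percentile under 10 it held for 50 of 955 (5.24%). Unlike that weak set, the groups also held strong members. Of the 14 WT-missing members with a median percentile of at least 20, 8 (57.1%) had a gained region within 50 kb. Among all members under 20, whichever library was missing, it was 22 of 306 (7.19%), nearer to the weak regions. Regions with a peak in both WT libraries and neither dnmt1 library lay within 50 kb of 6.79% of the regions missing from dnmt1 mt+, 3.33% for dnmt1 mt−, 10.2% for WT mt+ and 9.46% for WT mt−, and of 4.29% of the weak regions in all 4 lists.

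Mating type regions were counted in the same way. A region held by both mt− libraries and neither mt+ library lay within 50 kb of 23 of the 162 members missing from dnmt1 mt+ (14.2%). The share was 13.3% for members missing from dnmt1 mt−, 11.9% for WT mt+ and 4.05% for WT mt−. It was 11.4% for weak regions in all 4 lists, near the value for dnmt1 mt+ and above that for WT mt−. Within 20 kb the share was 9.26% for dnmt1 mt+ (15 of 162), beside 4.71% for weak regions (45 of 955). For dnmt1 mt−, WT mt+ and WT mt− it was 3.33%, 5.08% and 2.70%. These shares were not tested.

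Most members had neighbours held by every library, though less often than regions in all 4 lists did. The adjacent region on each side had a peak in every list for 241 of the 325 members (74.2%). This share was 77.2% for regions missing from dnmt1 mt+, 80.0% for dnmt1 mt−, 67.8% for WT mt+ and 70.3% for WT mt−. It was 76.4% for weak members, beside 82.3% for weak regions in all 4 lists and 88.4% for all regions in all 4 lists. The edge of the nearest neighbour lay at a median of 1596 bp from weak members and 1501 bp from weak regions in all 4 lists.

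The nearest peak of the library that lacked a member was mostly more than 1000 bp away. It lay at a median of 1566.5 bp for dnmt1 mt+, 2500.5 bp for dnmt1 mt−, 2780 bp for WT mt+ and 2010 bp for WT mt−. Within 1000 bp there was one for 62 of 162 members missing from dnmt1 mt+, 10 of 30 for dnmt1 mt−, 20 of 59 for WT mt+ and 21 of 74 for WT mt−, in all 113 of 325 (34.8%). In weak regions of all 4 lists, the next peak of the same library outside the region lay at medians of 1801, 1646, 1723 and 1719 bp in that order of libraries, and within 1000 bp for 37.7%, 40.7%, 39.2% and 39.3%. The medians of the members were thus below the weak regions' for dnmt1 mt+ and above them for the other 3 libraries. Only 8 members had one within 200 bp, among them chromosome 3, 3258995 to 3259487 (135 bp from a dnmt1 mt+ peak), chromosome 3, 4533961 to 4534342 (142 bp from a WT mt+ peak) and chromosome 6, 1681237 to 1681693 (149 bp from a WT mt− peak). Distances over 10 kb were seen for 14 members, the longest being 75407 bp for the region at chromosome 16, 3429897 to 3430659, which had 5.14 in dnmt1 mt+ and 4.91 in dnmt1 mt−, against 3.13 in WT mt+.

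Members of the same group were sometimes neighbours. Another member of its own group lay within 50 kb of 34 of 162 regions missing from dnmt1 mt+ (21.0%), 2 of 30 for dnmt1 mt− (6.67%), 18 of 59 for WT mt+ (30.5%) and 8 of 74 for WT mt− (10.8%). Of the weak regions in all 4 lists, 24.1% had a region missing from dnmt1 mt+ within 50 kb, 3.98% one missing from dnmt1 mt−, 7.96% one missing from WT mt+ and 9.42% one missing from WT mt−. The widest gap between members and weak regions was thus that of WT mt+ (30.5% and 7.96%), which was not tested. For dnmt1 mt+ the share was below that of the weak regions.

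Runs of at least 3 members of a group, with gaps of at most 50 kb, numbered 8 for dnmt1 mt+ (26 members) and 2 for WT mt+ (6 members), and 0 for the other groups. Both WT mt+ runs were on chromosome 15. In the run from 4166043 to 4189209, 3 members followed each other with no other region between them. Their fold enrichments were 2.81, 2.23 and 2.04 in dnmt1 mt+, 2.33, 2.36 and 3.07 in dnmt1 mt−, and 2.52, 2.33 and 1.59 in WT mt−. In this stretch of 23.2 kb WT mt+ had no peak, while the other 3 libraries had a peak at each of the 3 regions. The run from 2773640 to 2813358 held 3 members among 10 regions, of which 4 were in all lists and 1 was gained.

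The tightest dnmt1 mt+ run was on chromosome 12, where 3 members followed each other between 3939312 and 3942096. Their fold enrichments were 2.26, 2.21 and 2.22 in dnmt1 mt−, 1.71, 1.87 and 2.12 in WT mt+, and 2.03, 1.89 and 2.35 in WT mt−. The whole stretch measured 2.79 kb, so it was a row of weak peaks that 1 library lacked together. Runs of 4 members were found on chromosome 16, from 7294654 to 7352940 (fold enrichments of 1.64 to 3.51), and on chromosome 6, from 2981916 to 3051397 (1.83 to 2.91). These were looser, with 18 and 7 regions of all 4 lists between the members. On chromosome 6 a run of 3, from 754668 to 782731, shared its stretch of 21 regions with 7 of all 4 lists, 7 held by both mt− libraries alone and 3 held by a single library.

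Members were found on all 17 chromosomes. As a share of a chromosome's regions, chromosome 15 led with 26 of 583 (4.46%), followed by chromosomes 17 (3.17%), 11 (2.95%) and 6 (2.93%). Chromosomes 10 and 13 had the lowest shares, both 1.18%. The leading chromosomes differed in which library was missing. On chromosome 15, 12 of the 26 members were missing from WT mt+, with fold enrichments of 1.50 to 3.44 in the holding libraries. That was 2.06% of the chromosome's regions, beside 0.38% over all regions. On chromosome 11, 7 of 17 were missing from WT mt− (1.22% of its regions, beside 0.477% over all regions). On chromosome 17, 15 of 29 were missing from dnmt1 mt+ (1.64% of its regions, beside 1.04% over all regions). Of all members, 49.8% were missing from dnmt1 mt+, so chromosome 17 was near the whole in this. There 6 were missing from dnmt1 mt− (0.656% of its regions, beside 0.193% over all regions). These shares rest on few regions and were not tested.

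**Figure D5:**
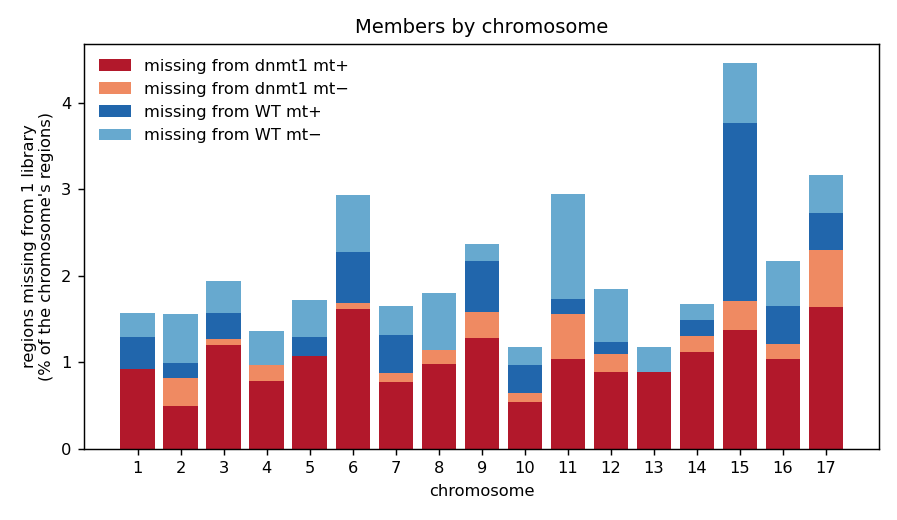
Members as a percentage of the regions of each numbered chromosome, stacked by the missing library. Chromosome 15 has the tallest bar (4.46%), with 2.06% from regions missing from WT mt+.

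Chromosome 6, which carries the mating type locus, had 40 members. Of these, 22 were missing from dnmt1 mt+, 1 from dnmt1 mt−, 8 from WT mt+ and 9 from WT mt−. As shares of the chromosome's regions these were 1.61%, 0.0733%, 0.586% and 0.659%, beside 1.04%, 0.193%, 0.38% and 0.477% over all regions. Between 300 and 800 kb, a window around the approximate place of the locus, 6 of 116 regions were members (5.17%): 5 missing from dnmt1 mt+ and 1 from WT mt−. Elsewhere on the chromosome 34 of 1249 were members (2.72%). On the separate sequence named mating_type_plus, 1 of 26 regions was a member, at 363936 to 364309. It was missing from dnmt1 mt+ and had a fold enrichment of 1.98 in dnmt1 mt−, against 2.34 in WT mt+ and 2.31 in WT mt−, so peaks were called there in both mt− libraries. The unplaced contigs held 5 members among 149 regions, and 1 of these, at contig 18, 118212 to 118764, was among the weakest regions missing from WT mt+ (1.87 in dnmt1 mt+, 1.74 in dnmt1 mt− and 1.62 in WT mt−).

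Chromosome ends held few members. Within 50 kb of an end, as far as the peaks reach, lay 11 of the 325 members (3.38%), 35 of the 955 weak regions in all 4 lists (3.66%) and 311 of all 14364 regions in all 4 lists (2.17%). By group the counts were 5 for dnmt1 mt+, 1 for dnmt1 mt−, 2 for WT mt+ and 3 for WT mt−. The share of members was thus near that of weak regions held by every library.

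Among the holding libraries, the weakest one by percentile depended on the group. In regions missing from dnmt1 mt+, WT mt+ ranked lowest in 73 of 162 (45.1%), beside 42.1% for the same 3 libraries in the 955 weak regions of all 4 lists. In regions missing from dnmt1 mt−, dnmt1 mt+ ranked lowest in 13 of 30 (43.3%, beside 47.6%). Both values were near those of the weak regions. In regions missing from WT mt+, WT mt− was lowest in 24 of 59 (40.7%, beside 27.4%), and in regions missing from WT mt−, WT mt+ was lowest in 32 of 74 (43.2%, beside 33.0%). In the same groups dnmt1 mt− was the lowest in 28.8% (beside 19.1%) and 25.7% (beside 17.2%), while dnmt1 mt+ was the lowest in 30.5% (beside 53.5%) and 31.1% (beside 49.8%). When 1 WT library lacked the peak, both the other WT library and dnmt1 mt− were thus the lowest more often, and dnmt1 mt+ less often, than in weak regions of all 4 lists. The sets were unlike in strength, as members of every strength were counted. A median percentile under 10 held for 53 of the 59 and 52 of the 74 members. In 7 of the 32, WT mt+ lay at least 20 percentile points under both dnmt1 libraries. These differences in the lowest library are between 1 library per group and were not tested.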

How the data were processed

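ChIP-seq peak lists of 4 libraries were used, 1 per group, and grouped by the sample titles. Tools named in the submitters' processing notes, with no options, are MACS2 2.2.7.1, Bowtie2 2.4.2, deepTools 3.5.1, Picard and Trim Galore 0.6.7. The genome build is not given in the sources used here. Per the labels, an H3K4me1 data set used the same input. The authors deposited, per peak, the fold enrichment ratio over the control, −log10 of the q-value, −log10 of the p-value, and a score of about 10 times −log10 q. Peaks were called per library, and depth is unknown.

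Here, peaks overlapping by 1 bp or more were merged. A region's fold enrichment in a library is the highest of its peaks there, and its percentile is that of its highest −log10 q there. Coordinates count from 1 in the deposited build. No genome of that build was at hand, so no gene or sequence is assigned. Weak regions are those with a median percentile under 10 over the holding libraries. Named per group were the 6 members with the highest lowest fold enrichment, the 2 widest, the 2 nearest to a peak of the lacking library, the 2 weakest, and runs of 3 or more; not all of these are printed. Members, lists and rules were chosen with earlier results of these data known. The counting was tested on simulated lists, made by deleting chosen peaks from near copies of the WT mt+ list. That test did not cover split peaks or shifted summits. Analyses ran in Python 3.11.15 (pandas 2.3.3, numpy 2.4.6, matplotlib 3.10.9, scipy 1.17.1).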

Additional observations from a re-analysis of the deposited data

Results flagged for a closer look

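The difference between genotypes ran in opposite directions in the 2 strains. Regions missing only from dnmt1 minus regions missing only from WT came to 103 in the mt+ strain (162 and 59) and to -44 in the mt− strain (30 and 74). The difference was not tested, since each group had 1 library. Within each strain the longer list had the fewer missing regions. The mt+ lists were nearly equal in length, with 14986 peaks for dnmt1 mt+ and 14990 for WT mt+. The mt− lists held 15323 for dnmt1 mt− and 15065 for WT mt−. Between strains length did not order the counts: the WT mt− list was longer than the WT mt+ list and lacked more regions (74 and 59). With lists of equal length the differences were 81 and 28, so the directions were then the same. The relation of the counts to list length was not tested.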

How the results depend on the processing

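Of 71 alternative values for 13 results, 53 stayed near the main value, 17 moved and 1 reversed. Near meant within a ratio of 1.5 for counts and differences, and within the main value's 95% interval for shares. For the count missing from dnmt1 mt+, 219 with a minimum −log10 q of 10 in all lists and 115 with lists of equal length were thus near. The count missing from dnmt1 mt+ (162) was 327 with summits within 200 bp and 34 where the 3 holding libraries each needed a −log10 q of 10. For dnmt1 mt− (30) these settings gave 209 and 12, lists of equal length 98, and a minimum −log10 q of 10 in all lists 48. For WT mt+ (59) they gave 198 and 8, and lists of equal length 34. For WT mt− (74) they gave 282 and 27. With equal lists, dnmt1 minus WT in the mt− strain (-44) reversed to 28. It moved to -73 with summits within 200 bp and to -22 with a minimum −log10 q of 10 in all lists. Where the 3 holding libraries each needed that q it was -15, and under the other settings it stayed near -44. In the mt+ strain this difference (103) moved to 158 with a minimum −log10 q of 10 in all lists. It moved to 26 where the 3 holding libraries each needed that q. Another member of the same group lay within 50 kb of 19.1% of members and within 20 kb of 13.5%. The shares for width, strength, chromosome ends and adjacent regions stayed within their intervals under the alternatives run for them. The 8 members with both dnmt1 libraries 20 percentile points above the remaining WT library became 10 at 10 points, 6 at 30 points and 8 with equal lists, and the opposite count was 0 in each, alternatives chosen after the data were seen. The cause of these changes was not tested, except that asking the 3 holding libraries for a higher q can only remove members. No paired analysis was possible because each group had 1 library.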
